A study of Mus musculus with 24 samples.

Results

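CD31+ regions of the non-diabetic mouse retina, here called retMECs, were compared with NeuN+ regions of the non-diabetic retina, here called neuronal regions. The 6 regions, 3 of each cell type, were chosen by their sample titles out of 24 regions of the retina, kidney and heart. Transcripts in formalin-fixed, paraffin-embedded sections had been hybridised with the Mouse Whole Transcriptome Atlas, whose probes carry barcodes that ultraviolet light releases from a marked region for counting by sequencing. The comparison asks how far microvascular endothelial cells (MECs) and neurons of the same tissue differ before diabetes. All mice were male C57BL/6J, and the non-diabetic mice were littermates given citrate buffer over 5 days from 8 weeks of age and killed 2 months later. The diabetic mice, used below as separate regions in which the same probes were looked at, had been given streptozotocin at 50 mg/kg in that buffer on the same schedule.

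CD31 is an adhesion molecule on the surface of endothelium, and NeuN is a protein of the nuclei of many neurons. Retinal capillaries run between the layers of neurons, and their endothelial cells form the inner blood-retinal barrier together with pericytes and glia. Retinal endothelial cells and neurons share this neurovascular unit but carry different transcripts, such as those of junction and transport proteins in the former and of synaptic proteins in the latter.

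Regions had been drawn around microvessels rather than large vessels, and the study did not separate kinds of NeuN+ cells. The files give probe IDs without gene symbols, so neither CD31 and NeuN nor other markers could be checked in the counts, and the labelled cell types rest on the staining. The study used 3 non-diabetic mice, but the labels do not tie regions to mice, so the mouse could not be a block and the p-values leave it out. A region with fewer cells and a region with less RNA per cell cannot be told apart in such counts. All 6 retMEC regions of the series were on plate 1 and the other 18 regions on plate 2. Plate and cell type therefore cannot be told apart in any contrast of retMECs with neuronal regions. The same holds for plate and organ wherever retMECs are set beside kidney or heart regions. Places and ranks of a probe within its own region do not depend on how regions are scaled to each other, and they are named as such below. Scaling cannot remove, and ranks do not remove, a difference between plates that acts on single probes.

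RetMEC regions 2 and 3 were shallower than every neuronal region, and all 3 retMEC regions took far more sequencing per molecule. The 3 retMEC regions held 342522, 85657 and 71038 counts, and the 3 neuronal regions 372615, 788146 and 244551. Reads aligned to a probe barcode made up 61.0%, 43.4% and 45.9% of raw reads in retMECs and 96.4%, 96.6% and 95.5% in neuronal regions. The retMEC regions had 82.8, 81.8 and 92.3 aligned reads for each count, against 3.86, 11.1 and 8.05 in neuronal regions. Of the 20186 probes with a count anywhere in the series, 20175, 18936 and 17324 had one in the retMEC regions and 20163, 20184 and 20122 in the neuronal regions.

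RetMEC region 1 stood apart from the other retMEC regions. Its counts were spread almost evenly over probes: its median probe had 16 counts and its 99th percentile was 35, or 2.19 times the median. That ratio was 7.33 and 11 in retMEC regions 2 and 3 and between 9.71 and 11.2 in the neuronal regions. The main comparisons are therefore also given without region 1.

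In retMECs, the highest probes held a smaller share of all counts than in neuronal regions. The 10 highest probes held 0.857%, 4.36% and 7.31% of counts in the retMEC regions and 13.1%, 10.8% and 12.2% in the neuronal regions. The 100 highest held 2.32%, 9.86% and 14.7% against 22.3%, 19.5% and 20.9%, where equal counts for all probes would give 0.495%. The groups did not overlap at either list length. The 100 highest probes held 8.95% ± 6.23 of counts in retMECs and 20.9% ± 1.37 in neuronal regions (SD, n = 3 each), a difference of -11.95 percentage points with an exact two-sided permutation p of 0.1, the smallest that 3 regions against 3 can give. Without retMEC region 1 the difference was -8.64 points.

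The order of the groups was the same at equal depth. When all 6 regions were thinned at random to 71038 counts, the 100 highest probes held 2.55%, 9.93% and 14.7% in retMECs and 22.3%, 19.9% and 20.9% in neuronal regions. At that depth the retMEC regions had a count for 19403, 18341 and 17324 probes, and the neuronal regions for 17209, 17225 and 17527. These shares need no scaling between regions, but they use the counts and not ranks alone. Plate and cell type cannot be told apart in them.

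**Figure D1:**
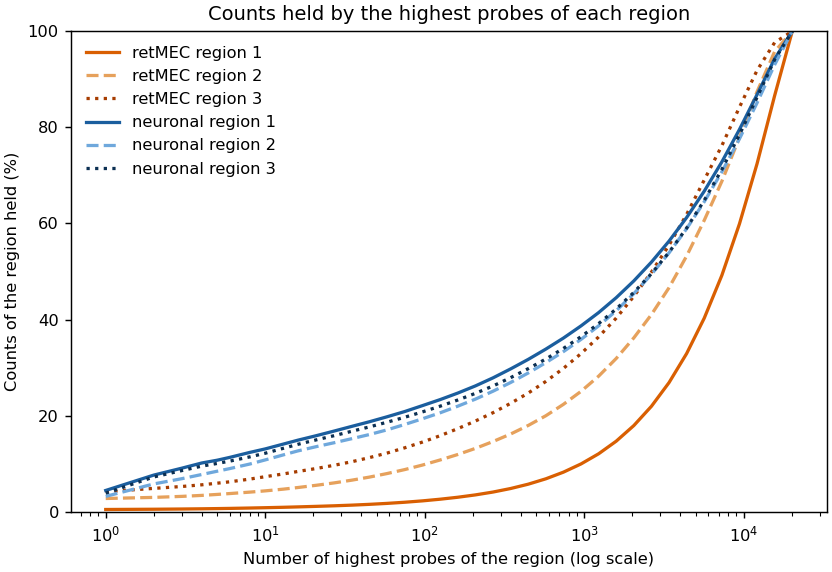
The share of each region's counts (y axis, %) held by its highest probes (x axis, number of probes, log scale), with 1 line for each of the 3 retMEC regions (orange) and 3 neuronal regions (blue). At 100 probes the retMEC lines lie at 2.32%, 9.86% and 14.7%, all below the neuronal lines at 22.3%, 19.5% and 20.9%, and retMEC region 1 runs lowest.

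Ranks of probes were compared between regions by Spearman correlation across the 20186 probes, after thinning the 12 non-diabetic regions to 71038 counts each. Probes are not independent replicates and the values are given as a description. The neuronal regions correlated with each other at 0.382 to 0.408. RetMEC regions 2 and 3 correlated with each other at 0.391, within that range, whereas retMEC region 1 correlated with them at 0.143 and 0.146. Over the 1000 probes with the highest mean scaled count in the 12 regions, the neuronal regions correlated at 0.851 to 0.874 and retMEC regions 2 and 3 at 0.806. RetMEC region 1 correlated with these at 0.504 and 0.497, above its means of 0.228 with neuronal regions, 0.161 with renMECs and 0.247 with carMECs. Among high probes retMEC region 1 was thus closest to the other retMEC regions, while across all probes its correlations were low throughout.

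At equal depth, retMEC regions 2 and 3 were less like the neuronal regions than like each other. RetMEC region 3 correlated with the neuronal regions at a mean of 0.360, with renal MECs (renMECs) at 0.343 and with cardiac MECs (carMECs) at 0.247. RetMEC region 2 gave means of 0.309, 0.304 and 0.220 in the same order. In both regions the mean correlation with retinal neuronal regions was slightly above that with renMECs, and lowest with carMECs. RetMEC region 1 gave 0.117, 0.120 and 0.113, with almost no difference between the other cell types. Over the 1000 high probes the lead of the neuronal regions was larger and the order of the other organs turned. RetMEC region 3 gave 0.530 with neuronal regions, 0.090 with renMECs and 0.200 with carMECs, and retMEC region 2 gave 0.454, 0.175 and 0.261. These high probes were chosen with all 12 regions, including those compared. At the deposited depths the retMEC regions correlated at 0.258 to 0.409 with each other and 0.262 to 0.508 with neuronal regions. There the 0.409 belonged to retMEC regions 2 and 3. With the neuronal regions, retMEC region 3 gave 0.442 to 0.508, all above that value, and retMEC region 2 gave 0.394 to 0.454.

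**Figure D2:**
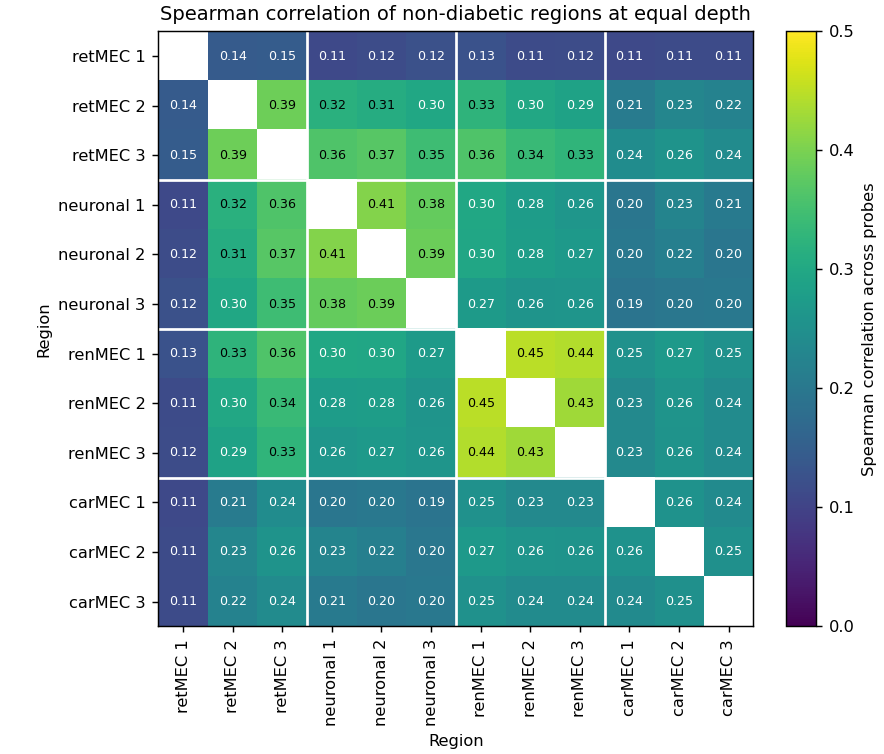
Spearman correlation across probes (colour scale and printed value) between each pair of the 12 non-diabetic regions after thinning to 71038 counts. RetMEC regions 2 and 3 (0.39) match the neuronal pairs (0.38 to 0.41), and the row of retMEC region 1 stays between 0.11 and 0.15.

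The lists of highest probes, which are facts of within-region rank, differed between the cell types. Of the 100 highest probes of each region, with ties kept, 68 were shared by all 3 retMEC regions and 82 by all 3 neuronal regions. All 6 lists shared 25 probes, 36.8% of those shared by retMECs and 30.5% of those shared by neuronal regions. Of the rest, 36 probes were in every retMEC list and no neuronal list, and 46 were in every neuronal list and no retMEC list. RetMEC regions 2 and 3 alone shared 82, and 30 of these were in all 3 neuronal lists.

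Longer lists showed the flat ranks of retMEC region 1 more clearly. Of the 1000 highest probes, all 3 retMEC regions shared 330 and retMEC regions 2 and 3 shared 702, against 770 shared by the neuronal regions. At equal depth, the 3 retMEC regions shared 45 of the 100 highest and regions 2 and 3 shared 81, against 73 in neuronal regions, and 18 probes were in all 6 lists.

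The same probe ranked highest in all 6 regions. Its scaled counts, which are counts divided by the 75th percentile of the region, were 83, 475 and 743 in retMECs and 1036, 724 and 864 in neuronal regions. The groups overlapped. The log2 difference, retMECs minus neuronal, was -1.01 (SE 1.14), with an edgeR adjusted p of 0.636.

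The probe that ranked 2nd in each of the 3 neuronal regions set the cell types apart. Its scaled counts were 744, 583 and 748 in neuronal regions and 2.95, 18.4 and 51 in retMECs, where it stood at places 32, 16 and 6. The log2 difference was -4.86 (SE 1.27, edgeR adjusted p 0.0127). In the 6 non-diabetic renMEC and carMEC regions its scaled counts were between 0.182 and 0.947. The 3 retMEC regions thus lay above the MECs of the other organs and below the neuronal regions for this probe, with no overlap on either side.

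The probe that was highest in retMECs among those called higher there had the opposite order. Its scaled counts were 6.5, 18 and 60.3 in retMECs, at places 8, 17 and 5, and 0.5, 1.66 and 0.909 in neuronal regions. The log2 difference was 4.71 (SE 0.852, edgeR adjusted p 0.000924). Non-diabetic renMECs had 80.4, 104 and 152 and carMECs 45.1, 97.9 and 96.4, so the MECs of the other organs carried this probe at a higher level than retMEC regions 1 and 2. These 3 abundant probes were chosen after their values were seen.

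Across all probes, more were lower than higher in retMECs under the 75th percentile scaling that the study used. EdgeR's quasi-likelihood test kept 9787 probes, and at an adjusted p under 0.05 it called 947 (9.68%), of which 224 were higher (2.29% of probes tested) and 723 lower (7.39%) in retMECs. The unadjusted p was under 0.05 for 677 higher and 1738 lower probes. Probes called higher had a median log2 difference of 1.53, from 1.01 to 4.87, and 43 of them exceeded a 4-fold difference. Probes called lower had a median of -1.58, and 177 exceeded 4-fold. The 718 of them that had counts on plate 1 also had a median of -1.58 and reached -5.05. The median over all probes tested was -0.16.

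The calls made up a much larger part of the neuronal counts than of the retMEC counts. Probes called lower in retMECs held 20.3% ± 0.993 of counts in neuronal regions and 4.66% ± 1.35 in retMECs, and probes called higher held 0.583% ± 0.020 and 3.30% ± 1.24 (SD, n = 3 each). These shares come from the contrast that chose the probes and are given as a description. Of the 500 probes tested with the highest mean scaled counts, 155 were called lower (31% of them) and 16 higher (3.2%). Of the 4787 lowest, 45 were called lower (0.94%) and 68 higher (1.42%).

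**Figure D3:**
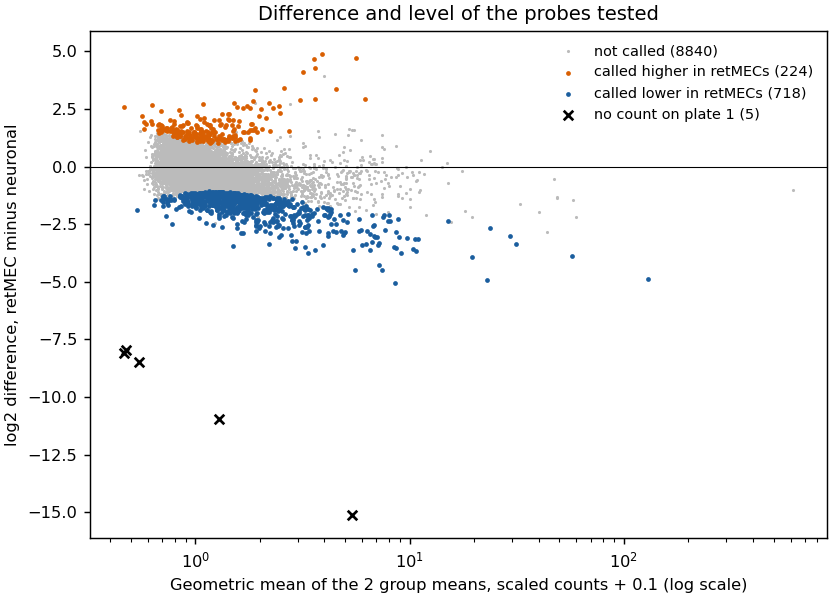
The log2 difference, retMEC minus neuronal (y axis), against the geometric mean of both group means in scaled counts plus 0.1 (x axis, log scale) for each of the 9787 probes tested. Of the 500 probes with the highest mean scaled counts, 16 were called higher (224 in all, orange) and 155 lower (723 in all, blue or crosses). The 5 crosses without a count on plate 1 have differences set by zeros.

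How many probes were called depended on single regions, while lower calls outnumbered higher calls whichever region was left out. Leaving out retMEC region 1 gave 290 higher and 541 lower calls of 7254 probes tested. Leaving out retMEC region 2 gave 109 and 305 of 15409, and leaving out retMEC region 3 gave 247 and 882 of 15584. Without neuronal region 1 the calls were 184 and 466 of 8192, and without neuronal region 2 they were 140 and 367 of 8271. Without neuronal region 3 they were 166 and 406 of 15085. The filter kept a different number of probes in each fit, against 9787 in the main fit, so these counts do not share a base. With each of the 6 regions left out in turn, 60 higher and 170 lower probes were called every time, and without retMEC region 1 alone 148 of the 224 and 430 of the 723 were still called.

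The balance of higher and lower calls depended on the scaling. With counts scaled by the total of each region, 797 probes were called higher (7.37% of 10814 tested) and 302 lower (2.79%). The median of all probes tested was 0.27 under this scaling, in place of -0.16. TMM factors gave 187 higher and 435 lower, and DESeq2's size factors in edgeR gave 159 and 432. The same 159 probes were called higher, and 288 lower, under all 4 scalings. Which cell type had more high probes is therefore not settled by these counts.

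**Figure D4:**
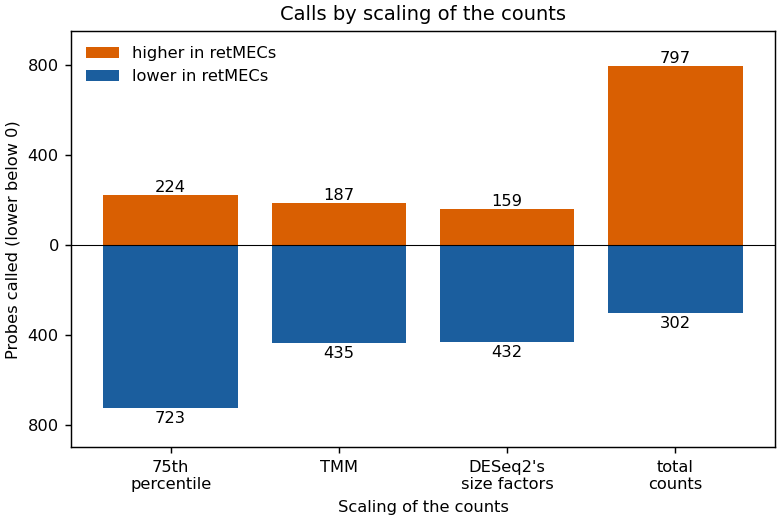
Probes called higher (orange, above 0) and lower (blue, below 0) in retMECs than in neuronal regions by edgeR at an adjusted p under 0.05 (y axis, number of probes) under 4 scalings of the counts (x axis). The bars go from 224 higher and 723 lower under the 75th percentile to 797 higher and 302 lower under total counts.

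Within-region ranks gave the same directions and fewer calls. Limma on the normal scores of each probe's rank within its region called 37 probes higher (0.378% of 9787) and 16 lower (0.163%), and all 53 were also called by edgeR in the same direction. The unadjusted limma p was under 0.05 for 648 higher and 1170 lower probes. Without retMEC region 1, limma called 96 higher and 106 lower of 7254 probes. Leaving out any other region left 0 calls by limma, with between 474 and 1052 higher and 554 and 1613 lower probes at an unadjusted p under 0.05. Those fits tested between 8192 and 15584 probes. Calls on ranks were thus made only while retMEC regions 2 and 3 and all 3 neuronal regions were in the fit.

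The edgeR calls can also be described by rank. The 224 probes called higher had median rank percentiles of 94.3, 94.8 and 93.3 in the retMEC regions and 39.9, 36.2 and 36.6 in the neuronal regions. The 723 called lower had medians of 40.5, 63.3 and 75.7 in retMECs and 95.2, 95.3 and 94.9 in neuronal regions. All 9787 probes tested had medians of 63.5, 74.8 and 75.7 in retMECs and 74.9, 75.5 and 74.8 in neuronal regions. In retMEC region 3 the probes called lower thus had the median rank of all probes tested. The low value of 40.5 belonged to retMEC region 1, in which most probes had nearly equal counts. Ranks of the 3 retMEC regions did not overlap those of the neuronal regions for 207 of the 224 (9.23% of all probes tested did not overlap, with retMECs higher) and for 678 of the 723 (18.1%, with retMECs lower). Scaled counts did not overlap for 204 of the 224 (8.04% of all probes, retMECs higher) and 685 of the 723 (19.3%, retMECs lower). All 4 counts come from the contrast that chose the probes.

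A small set of probes was absent from plate 1 as a whole. No count was listed for 11 probes in any of its 6 regions, diabetic retMECs included, while 8 of them had a count in all 18 regions of plate 2 and all 11 in at least 17. They held between 1.22% and 1.54% of neuronal counts, nearly all of it from 1 probe with scaled counts between 246 and 336. In retMEC region 1, whose 10th percentile was 10 counts, these 11 were the only probes at 0. Of the 11, 5 were among the probes called lower in retMECs. With all 11 left out of the fit, edgeR called 225 higher and 721 lower. MECs of the kidney and heart on plate 2 carried these probes, so their absence moved with the plate. Plate and cell type cannot be told apart in their 5 lower calls, which are not read as a difference between cell types.

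Named by the smallest p among probes with no overlap in scaled count or rank, the first 2 higher probes were RTS0064638 and RTS0074905. RTS0064638 had scaled counts of 1.75, 3.4 and 3.25 in retMECs, from 35, 17 and 13 counts, and of 0.25, 0.486 and 0.182 in neuronal regions, from 4, 17 and 2 counts. Its log2 difference was 2.70 (SE 0.38, edgeR adjusted p 5.58e-05). Its rank percentile was 99, 98.4 and 97.4 in retMECs and 6.74, 27.8 and 3.60 in neuronal regions. All 3 retMEC regions lay far above the neuronal regions on both scales.

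RTS0074905 had scaled counts of 2.75, 5.2 and 9.5 in retMECs and 0.375, 0.686 and 0.455 in neuronal regions. Its log2 difference was 3.31 (SE 0.469, edgeR adjusted p 5.58e-05). Against the diabetic neuronal regions, RTS0064638 was also higher in diabetic retMECs (log2 difference 3.73), diabetic heart (2.44) and diabetic renMECs (2.28), and RTS0074905 likewise (3.89, 2.09 and 2.46), all called by edgeR. Within plate 2, both probes were thus higher in diabetic heart and renMECs than in diabetic neuronal regions. No retMEC region was on plate 2, so the difference between retMECs and neuronal regions was not measured within a plate.

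The first 2 lower probes, RTS0081199 and RTS0081614, were among the 11 without a count on plate 1. RTS0081199 had 0 counts in every retMEC region and scaled counts of 1.94, 3.6 and 3 in neuronal regions (edgeR adjusted p 3.11e-06). With each retMEC region set to a floor of 3 counts, it was at least 5.69-fold lower. RTS0081614 had 0 counts in retMECs and a mean scaled count of 2.07 ± 0.82 in neuronal regions (SD, n = 3), at least 4.14-fold lower by the same floor (edgeR adjusted p 4.68e-06). The floor covers counting error only. Whether these probes could be counted on plate 1 is not given, so neither fold is a firm bound. Within plate 2, RTS0081199 differed from diabetic neuronal regions by -0.51 in diabetic heart (edgeR adjusted p 0.548) and -0.69 in diabetic renMECs (0.283). RTS0081614 differed by -2.06 in diabetic heart (9.89e-05) and -0.16 in diabetic renMECs (0.824).

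The next 3 lower probes by the same rule also had no count on plate 1, and the 2 after them did. The first of these had a mean scaled count of 0.383 ± 0.161 in retMECs and 4.53 ± 0.485 in neuronal regions (SD, n = 3), a log2 difference of -3.45 (SE 0.522, edgeR adjusted p 0.000154). The second had 0.5 ± 0.1 and 2.88 ± 0.294, a log2 difference of -2.61 (SE 0.44, edgeR adjusted p 0.000528). Their retMEC levels came from few counts, since 1 count in retMEC region 3 is worth a scaled count of 0.25.

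To place the retMECs between neurons and other MECs without using their own values, 2 sets of probes were chosen on plate 2 alone, after the values had been seen. The neuronal set was the 63 probes among the 200 highest of every non-diabetic neuronal region and outside the 2000 highest of every non-diabetic renMEC and carMEC region. The median rank percentile of these probes was 75.7, 94.8 and 97.7 in retMEC regions 1, 2 and 3, and 13, 32 and 51 of the 63 were among the 1000 highest probes of those regions. In the diabetic renMEC and heart regions, which had no part in the choice, the median rank percentile was between 26.6 and 49.7, and at most 2 of the 63 were among the 1000 highest. The retMEC regions thus ranked the probes typical of neuronal regions above their ranks in kidney and heart, and the 3 retMEC regions differed widely in this. Because the retMEC regions were on plate 1, plate and organ cannot be told apart in this difference.

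On the scaled level the same probes had medians of 1, 2 and 3.5 in the retMEC regions, between 14.6 and 16.6 in the non-diabetic neuronal regions that chose them, and between 0.437 and 0.667 in the diabetic renMEC and heart regions. They held 0.407%, 1.02% and 1.90% of retMEC counts. In the diabetic retMEC regions the medians were 3, 0.5 and 1.33, and the 0.5 of diabetic retMEC region 2, which is 1 count, lay within the range of kidney and heart. Its median rank percentile of 54.5, its 10 of 63 probes among the 1000 highest and its share of 0.460% of counts lay above that range. How much of this signal came from neurons next to the microvessels was not tested.

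The opposite set held 14 probes, among the 500 highest of every non-diabetic renMEC and carMEC region and outside the 2000 highest of every non-diabetic neuronal region. Their median rank percentile was 97, 97.2 and 95.9 in the retMEC regions, with 8, 8 and 7 of the 14 among the 1000 highest. It was between 49.8 and 58.7 in the diabetic neuronal regions, which had no part in the choice. Their median scaled counts were 1.45, 2.6 and 3.25 in retMECs, and between 6.3 and 11 in the diabetic renMEC and heart regions. Each diabetic renMEC and heart region had 13 or 14 of the 14 among its 1000 highest, and each diabetic neuronal region at most 1. The median rank of these 14 probes was therefore high in all 3 retMEC regions, retMEC region 1 included. Fewer of them were among the highest there than in the other organs, and their scaled median was lower. Plate cannot be told apart from organ or cell type in these differences.

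The 224 and 723 called probes were then followed in the diabetic regions, which are other mice and share no region with the comparison above. In diabetic retMECs against diabetic neuronal regions, edgeR called 111 of the 224 higher (49.6%, where 2.8% of the same 9787 probes were called higher) and 0 lower. Of the 723, 280 were called lower (38.7%, against 4.38% of all) and 0 higher. Of the 224, 85.3% were on the higher side, as were 39.9% of all probes, and of the 723, 89.3% were on the lower side, as were 60.1% of all. The median log2 differences were 1.87 and -1.26, against -0.23 over all probes. Ranks did not overlap for 137 of the 224 (8.98% of all, retMECs higher) and 417 of the 723 (13.3% of all, retMECs lower). Diabetic retMECs were on plate 1 and diabetic neuronal regions on plate 2, as in the non-diabetic contrast.

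Contrasts of the heart and kidney with neuronal regions, both within plate 2, gave medians in the same directions. They hold no retMEC region, so the difference between retMECs and neuronal regions was not measured within a plate. In the diabetic heart, of which the labels name MECs for region 1 only, 77 of the 224 were called higher (4.55% of all) and 2 lower, and 452 of the 723 were called lower (10.9% of all) and 16 higher. In diabetic renMECs, 109 of the 224 were called higher (8.17% of all) and 3 lower, and 413 of the 723 were called lower (8.47% of all) and 10 higher. Median log2 differences of the 224 and the 723 were 1.01 and -1.51 in the heart and 1.41 and -1.30 in renMECs, against medians of -0.15 and -0.00 over all probes. These 3 diabetic contrasts share the same neuronal regions. Ranks in the diabetic heart did not overlap those of diabetic neuronal regions for 102 of the 224 (10.3% of all, heart higher) and 457 of the 723 (17% of all, heart lower). In diabetic renMECs this held for 135 of the 224 (15.2% of all, renMECs higher) and 458 of the 723 (15.9% of all, renMECs lower).

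These diabetic fits used the 9787 probes of the non-diabetic comparison. With edgeR's filter applied to the shallower diabetic regions themselves, 1060 probes were tested in retMECs, 1835 in the heart and 3845 in renMECs. Of the 224 and the 723, 58 and 327 passed that filter in diabetic retMECs, 45 and 460 in the heart and 108 and 587 in renMECs. A low probe passes such a filter only through the group in which it is high, so the counts that follow are a description. In diabetic retMECs, 58 of the 58 from the 224 that passed were called higher, where 11.5% of all 1060 probes were. Of the 327 from the 723 that passed there, 247 were called lower, where 34.5% of all were. In the diabetic heart, 43 of 45 were called higher (19.3% of all probes tested there) and 385 of 460 lower (47.3%). In diabetic renMECs, 94 of 108 were called higher (23.8% of all) and 394 of 587 lower (20%). Calls in the opposite direction were 0 and 0 in retMECs, 1 and 18 in the heart, and 2 and 14 in renMECs.

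**Figure D5:**
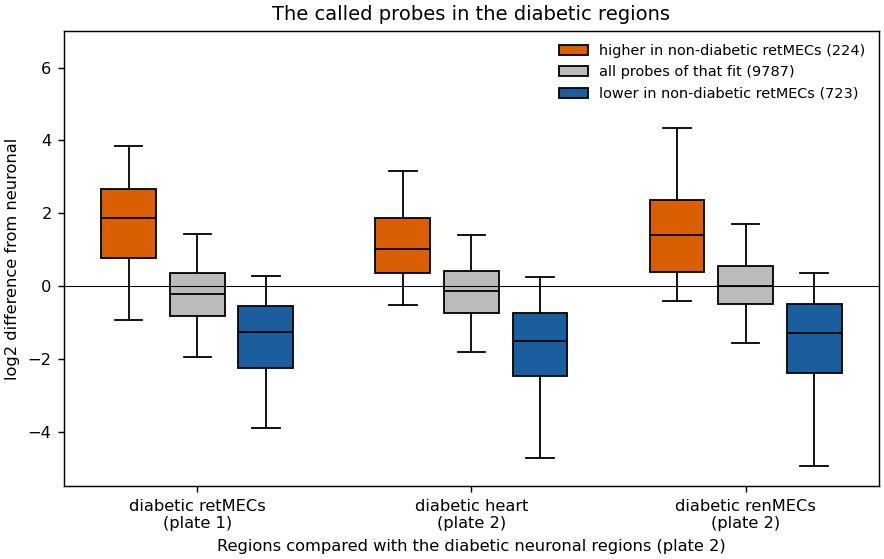
Log2 difference from the diabetic neuronal regions (y axis) in diabetic retMECs, heart and renMECs (x axis) for the probes called higher (orange, 224) and lower (blue, 723) in non-diabetic retMECs and for all 9787 probes (grey). Boxes are quartiles with the median and whiskers the 5th and 95th percentiles over probes, and the orange medians (1.87, 1.01 and 1.41) lie above and the blue medians (-1.26, -1.51 and -1.30) below the grey medians.

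The lists were also made without retMEC region 1. That fit called 290 of 7254 probes higher (4%) and 541 lower (7.46%), with median log2 differences of 1.85 and -1.87. The 290 held 6.50% and 7.38% of counts in retMEC regions 2 and 3 and 1.39% to 1.43% in neuronal regions, and the 541 held 4.71% and 6.66% against 21.4% to 22.9%. Ranks did not overlap for 288 of the 290 (17.7% of all probes, retMECs higher) and 536 of the 541 (28.5%, retMECs lower), which the choice of the probes shapes. Of the 500 highest probes, 45 were called higher and 202 lower.

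In the diabetic regions these lists gave directions like those of the 224 and 723. In diabetic retMECs, 163 of the 290 were called higher (3.6% of all 7254) and 274 of the 541 lower (6.12%), with 0 opposite. In the diabetic heart, 123 were called higher (5.47% of all) and 396 lower (15.3%), with 4 and 8 opposite. In diabetic renMECs, 173 were called higher (9.54% of all) and 354 lower (12.1%), with 3 and 9 opposite.

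Non-diabetic carMECs and renMECs were set against the same neuronal regions that chose the probes, so their values stand only side by side. The 224 probes had medians of 1.53 in retMECs, 1.18 in carMECs and 1.27 in renMECs, and the 723 had -1.58, -1.32 and -1.29. Medians over all probes were -0.16, -0.13 and -0.19.

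Whether the contrast of retMECs with neuronal regions differed between diabetic and non-diabetic mice was tested in 12 regions. Of 2668 probes, edgeR called 0 for a different contrast (0% of those tested), with 216 larger and 45 smaller in diabetic mice at an unadjusted p under 0.05. Leaving out single regions gave between 0 and 51 calls. The 51 came without non-diabetic retMEC region 3, and 11 came without non-diabetic retMEC region 1. The retMEC regions were shallow and few probes passed the filter, and 0 calls do not show that the contrasts were equal.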

How the data were processed

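The values deposited by the authors are counts, 1 list for each region, made with GeoMx NGS Pipeline 2.3.4 per the file headers: reads were aligned to probe barcodes and reads with the same molecular identifier merged. mm10 is the build in the submitters' notes, and no coordinates were used. The quality control, exclusion of genes and 75th percentile scaling of the study's methods had not been applied to the deposited counts. Probes not listed were given 0 counts, and 0 value columns were left unused. Groups came from the sample titles. Probes are not paired with genes in the sources used here, so the gene lists drawn up were not tested. The probes and lists were chosen with earlier results of these data known.

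EdgeR 4.0.16 (R 4.3.3, robust quasi-likelihood test) was run on the 6 regions with factors from the 75th percentile of all probes (edgeR's upper-quartile method) and filterByExpr (minimum count 10), which left out 10399 probes. Probes were called at a Benjamini-Hochberg adjusted p under 0.05. Ranks were tested with limma 3.58.1 on normal scores. Diabetic contrasts were fitted on the 9787 probes of the non-diabetic fit, a choice made after seeing the data, as were DESeq2's size factors in edgeR, leaving out probes absent from plate 1, and following the lists called without retMEC region 1. The probes named were the 2 higher and 2 lower with the smallest p among those whose regions did not overlap in scaled count or rank. Fits were tested on simulated data. Replicates differed beyond counting error (chi-square per degree of freedom 1.23 to 3.08). Total counts from 71038 to 788146 set the precision, and floors cover counting error only. Alternatives included TMM, total counts, DESeq2 1.42.0, other filters, thinning to 71038 counts, a replicate block and the methods' t-test.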

Additional observations from a re-analysis of the deposited data

How the results depend on the processing

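Single probes of the shallow retMEC regions rest on a few counts, and the number of calls moved widely. The 4 probes named kept their sign and stayed called in each edgeR setting in which they were tested. They had been picked by the smallest p and no overlap in these same regions, which favours such an outcome. RTS0081199 and RTS0081614 had 0 counts in every retMEC region, so their sign could not turn. Thinning to the lowest total left only RTS0074905 of the 4 among the probes tested. DESeq2's own test gave RTS0081614 no adjusted p. Against 224 higher and 723 lower calls, TMM gave 622 in all with 435 lower, total counts 797 higher and 302 lower, DESeq2's size factors in edgeR 591 in all with 432 lower, and DESeq2's own test 126 higher and 452 lower, 578 in all, with 5504 adjusted p-values not given. At least 10 counts in every region left 558 probes with 14 higher and 37 lower, 51 in all, and thinning to the lowest total left 677 probes with 10 higher and 148 lower, 158 in all. A model of all 24 regions gave 356 higher and 1426 in all. The methods' t-test gave 603 higher and 1502 lower probes, 2105 in all, and 0 of either direction after Benjamini-Hochberg adjustment. Leaving out each region gave 109 to 290 higher, 305 to 882 lower and 414 to 1129 calls in all, with 7254 to 15584 probes tested. The cause was tested for none of these.

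Same-numbered retMEC and neuronal regions deviated from their group means with correlations of -0.0172, 0.0264 and -0.0618, and only number 2 correlated best with its own, so the numbers were not taken to pair regions. With the replicate number as a block, edgeR gave 481 lower calls, and limma on ranks gave 9 higher and 6 lower, 15 in all.

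Against 37 higher and 16 lower calls on ranks, ranks taken over the probes kept gave 114 higher and 44 lower, 158 in all, and no filter gave 9 and 4, 13 in all. At least 10 counts in every region gave 66 higher, and thinned counts 11 higher and 32 lower. Leaving out each region gave 0 to 96 higher, 0 to 106 lower and 0 to 202 in all by limma, with 0 for every region but retMEC region 1. The test of a different contrast in diabetic mice gave 1 call without a filter and 0 to 51 with a region left out: 8 and 3 without diabetic retMEC regions 3 and 2, and 2 or fewer without any neuronal region. The difference in the share of the 100 highest probes ranged from -14.82 to -8.64 points with a region left out. Called probes with the same direction in the diabetic regions, each fit with its own filter, numbered 294 to 395 in retMECs, 428 to 527 in the heart and 439 to 521 in renMECs.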
